A study of Mus musculus with 15 samples.

Results

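The endoplasmic reticulum (ER) folding and quality control machinery was described in embryonic mouse pancreas by 35 genes, chosen by name as chaperones and folding enzymes (16 genes), sensors of the unfolded protein response with Xbp1 (4), genes of ER-associated degradation (ERAD, 9) and genes of the translocon and the COPII coat (6). All 35 were found among the 25292 genes of the count table, and all 35 carried enough reads to be tested. They were chosen with earlier results of these data known, so counts over them describe them and are not a test of the set. The libraries, 3 in each of 5 groups, were poly(A) RNA of C57BL/6J pancreata, with up to 3 organs or explants of the same kind pooled in each. Pancreata labelled wt or S1pr2 null were taken at 14.5 days post coitum (dpc), the null allele of the sphingosine-1-phosphate receptor S1pr2 being carried in all cells of the embryo. The other groups were wild-type explants of that stage after 2 further days of air-liquid interface (ALI) culture, grown from dorsal buds. They were kept in standard medium (control), with 15 μM of the S1pr2 antagonist JTE013 (JTE), or with 15 μM JTE013 plus 50 ng/ml of connective tissue growth factor (CTGF), a secreted matrix-associated protein. The study followed S1pr2 signalling in the commitment of progenitors to endocrine and acinar cells, and took up Sel1l as a candidate negative regulator of Notch.

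Proteins bound for secretion enter the ER through the Sec61 translocon, are folded there by chaperones and disulphide isomerases, and leave in COPII vesicles. Those that fail to fold are drawn back into the cytosol and degraded by ERAD, for which Sel1l is the adaptor of the ubiquitin ligase Syvn1. The sensors Ern1 (IRE1), Eif2ak3 (PERK) and Atf6 read the load of unfolded protein. Ern1 splices Xbp1 mRNA into the form that encodes an active transcription factor, PERK restrains translation and favours Atf4 and Ddit3 (CHOP), and Atf6 and Xbp1 act on chaperone and ERAD promoters. The acinar and β cells of the pancreas carry a heavy secretory load. Splicing, phosphorylation and cleavage of the sensors were not measured here.

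The best known promoter element of the pathway, the ER stress response element (ERSE), has the letters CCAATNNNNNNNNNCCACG, and ERSE-II has ATTGGNCCACG. Windows of 300 bases, from 250 before to 50 after a transcription start, were read from RefSeq on GRCm38.p6 for 29 of the 35 members (31 windows) and searched on both strands. No member window matched both motifs. ERSE letters stood in 9 of the 31 windows (29.0%), against 39 of 32851 windows of all genes (0.119%), and ERSE-II letters in 2 (6.45%), against 12 (0.0365%). The windows of all genes include those of the members. Since the members were chosen by name as genes of the pathway to which the element belongs, these shares describe them and are not a test. The matches were unequal among the classes. ERSE letters stood in 7 of the 14 windows of chaperones (Calr, Canx, Creld2, Dnajc3, Hsp90b1, Hspa5 and Pdia6) and in 2 of the 9 of ERAD genes (Derl3 and Syvn1), and in 0 of 3 windows of sensors and 0 of 5 of the translocon and COPII class. ERSE-II letters stood in the windows of Herpud1 and Dnajb11. The stretches below are shown because they carry these letters in members whose levels are given later, with Sel1l beside them as an ERAD gene in whose window, as in those of the other ERAD genes searched and not named above, neither motif was matched. Capitals mark the fixed letters of a matched motif at its ends, on either strand, and every stretch runs in the direction of the gene.
Hspa5, chr2:34772005-34772063, plus strand: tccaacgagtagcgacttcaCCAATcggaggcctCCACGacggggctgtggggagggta
Hsp90b1, chr10:86705513-86705676, minus strand, with 2 matches: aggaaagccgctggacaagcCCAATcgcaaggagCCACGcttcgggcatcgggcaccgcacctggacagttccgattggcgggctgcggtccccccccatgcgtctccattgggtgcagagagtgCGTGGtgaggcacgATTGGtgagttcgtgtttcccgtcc
Pdia6, chr12:17266471-17266529, plus strand: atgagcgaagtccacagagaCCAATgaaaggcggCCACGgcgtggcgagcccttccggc
Syvn1, chr19:6046512-6046570, plus strand: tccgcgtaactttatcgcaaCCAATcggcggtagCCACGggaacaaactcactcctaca
Derl3, chr10:75893222-75893280, plus strand: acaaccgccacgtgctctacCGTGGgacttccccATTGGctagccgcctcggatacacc
Herpud1, chr8:94386357-94386407, plus strand: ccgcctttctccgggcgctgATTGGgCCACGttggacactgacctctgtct
Sel1l, chr12:91849158-91849307, minus strand, with 0 matches: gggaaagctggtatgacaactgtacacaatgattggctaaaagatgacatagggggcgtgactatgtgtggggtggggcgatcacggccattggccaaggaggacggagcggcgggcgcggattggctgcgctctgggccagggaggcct
A further motif bound by spliced Xbp1 (UPRE, TGACGTGG) stood in the window of Sec24d alone (3.23% of member windows, 0.676% of all), and the CHOP and Atf4 composite element (CARE, TGATGNAAT) in 0 of the 31, against 0.965% of all windows. A match is a run of letters and was not shown to bind a factor.

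Levels between genes were compared as TPM, which divide reads by gene length and scale each library to the same sum. In wt pancreata the members ran from P4hb, with 1100, 1210 and 1170 TPM in the 3 libraries, to Pdia2, with 0.611, 0.998 and 0.253 TPM. P4hb, a disulphide isomerase, and Calr, a lectin chaperone with 1120, 1120 and 1180 TPM, overlapped in their libraries and were the most abundant members. Next stood Hspa5, the Hsp70 chaperone BiP, with 930, 914 and 932 TPM, which overlapped with Ssr2 of the translocon-associated complex at 884, 939 and 919 TPM. Hsp90b1 (GRP94) followed with 852, 819 and 857 TPM. The sensors stood far below, Atf6 at 26.1, 26.6 and 25.4 TPM, Ern1 at 22.3, 25.8 and 24.5 TPM and Eif2ak3 at 22.2, 22.9 and 21.7 TPM. Atf6 and Ern1 overlapped in their libraries, and so did Ern1 and Eif2ak3. Among ERAD genes Os9 and Edem2 were the most abundant and overlapped (122, 140 and 130 TPM for Os9, 87.9, 131 and 106 TPM for Edem2), Sel1l stood at 72.2, 77.4 and 73.3 TPM, and Derl3, the derlin of secretory cells, was the lowest at 5.35, 8.83 and 5.69 TPM. Over the group means of the 5 groups, Hspa5 spanned a 1.19-fold range of TPM and Derl3 a 13.0-fold range.

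**Figure D1:**
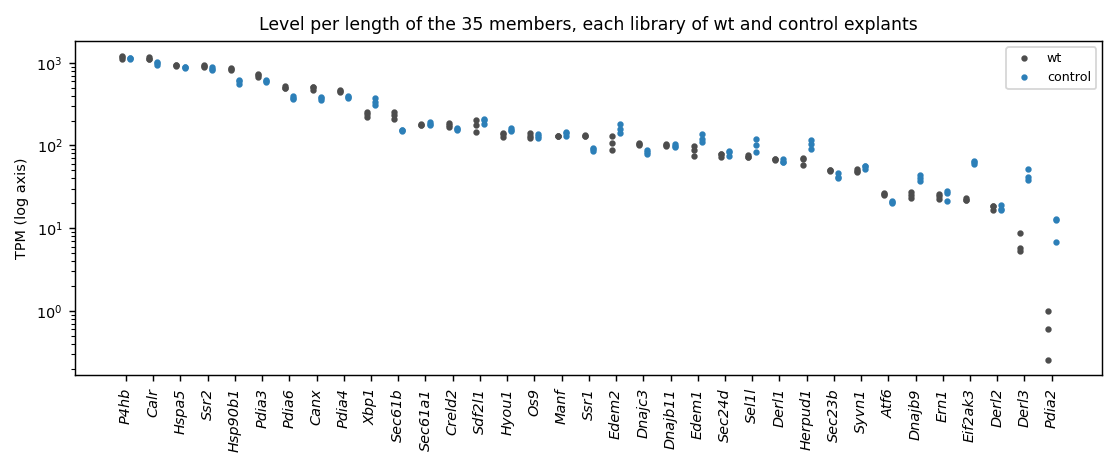
Level of each of the 35 members in TPM (log axis) in the 3 wt libraries (grey) and the 3 control explant libraries (blue), in order of the wt mean. P4hb stood highest and Pdia2 lowest in wt, and the blue points of Derl3 and Pdia2 stood farthest above the grey ones.

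Some facts of the whole series touch the results below. Library depth lay between 11402804 and 13828737 assigned reads. Reads of S1pr2 itself came to 858, 796 and 812 in wt and to 1486, 1368 and 1609 in the libraries labelled S1pr2 null (log2 fold change 0.83 ± 0.07 SE, edgeR adjusted p = 4.5e-07), so the deposited counts of that gene do not show its loss. The study describes the allele as disrupted by a Neo cassette in the first exon, and counts per gene do not separate its exons, so they do not check the label. The JTE replicate 3 stood apart, with a chi-square per gene of 16.1 and 21.8 against its fellow replicates, which differed by 2.88 from each other. It also held the lowest summed acinar marker level of its group (45840 against 82930 CPM in the highest, CPM being reads scaled to library size). Markers of acinar cells, endocrine cells and epithelium had reads in every group, with 0 of their genes at 0 reads. In bulk tissue, fewer cells of a type and less RNA per cell cannot be told apart.

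In the libraries labelled S1pr2 null, the ER machinery was lower than in wt over all 4 classes. Among members with more than 100 normalised counts the largest differences were in Edem2 and Edem1, which mark misfolded glycoproteins for disposal, in the chaperone cofactor Sdf2l1, the ERAD scaffold Herpud1 and the transcription factor Xbp1. Of the most abundant chaperones, Hspa5 (−0.12) and Calr (−0.15) did not pass, whereas P4hb was lower (−0.36 ± 0.07). Of the 35 members, 0 passed the test as higher (edgeR, adjusted p below 0.05), against 12.6% of all 16245 genes tested, and 26 as lower, against 13.3%. All 35 log2 fold changes were negative, with a median of −0.31 against −0.01 over all genes tested. For 34 of the 35 (97.1%) the libraries of the groups did not overlap, which held for 46.3% of all genes tested. This count takes in Pdia2, whose groups met at 2 reads and were parted only by scaling. By class, 12 of 16 chaperones, 2 of 4 sensors, 6 of 9 ERAD genes and 6 of 6 translocon and COPII genes were lower. By the criterion of the study, which adds a fold change below 0.6 or above 1.6 and a normalised count above 100 at an adjusted p of at most 0.1, 3 members were lower (Edem2, Edem1 and Sdf2l1, against 1.62% of all genes) and 0 higher (against 1.39%).

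Edem2 had normalised read counts of 1302, 2030 and 1590 in wt and 673, 654 and 640 in the libraries labelled S1pr2 null (log2 fold change −1.32 ± 0.17 SE, as in all brackets that follow, edgeR adjusted p = 4e-05). Edem1 had 1867, 2577 and 2213 in wt and 1108, 1026 and 1020 in null (−1.08 ± 0.14, adjusted p = 3.77e-05). Every null library of both genes was below every wt library, and the wt replicates were spread far wider than the null ones. These 2 genes were singled out after their values were seen. Xbp1 had counts of 3058, 3688 and 3372 in wt and 2224, 2141 and 2297 in null, with no overlap (−0.60 ± 0.10, adjusted p = 0.000298). Herpud1 fell from 575, 744 and 684 in wt to 411, 409 and 422 in null (−0.69 ± 0.13, adjusted p = 0.000667). Sdf2l1, which works with the BiP cofactors of the DnaJ family, fell from 686, 1006 and 844 in wt to 529, 464 and 485 in null (−0.78 ± 0.14, adjusted p = 0.000727). In each of these genes wt replicate 2 was the highest library, as it was for the summed acinar markers, which ranged from 6248 to 10650 CPM in wt.

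Sel1l had counts of 2641, 2954 and 2709 in wt and 2123, 2151 and 2190 in null, so that the groups did not overlap, but it did not pass the test (−0.36 ± 0.14, adjusted p = 0.0612 in edgeR). Its spread was set in a fit shared with the cultured groups. With the 6 libraries of these groups fitted alone the adjusted p was 4.29e-05, and with all 15 libraries it also passed under raw library totals (0.0429), that is without scaling factors, and with low genes left in (0.00346). Sel1l did not pass in DESeq2 or with the size factors of DESeq2 in edgeR. The fit of 6 libraries called 5387 of 15522 genes in either direction, and the shared fit 4199 of 16245. Hspa5 had 13980, 14330 and 14140 in wt and 13230, 12970 and 12850 in null, again without overlap and not past the test (−0.12 ± 0.06, adjusted p = 0.12). Fitted on the 6 libraries alone, Hspa5 passed as well (adjusted p = 0.0387). The difference in Hspa5 was small beside those of Edem1 and Edem2.

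Among the remaining chaperones, Pdia6 had 7901, 8339 and 8455 in wt and 6930, 6827 and 7067 in null (−0.25 ± 0.07, adjusted p = 0.0171), and Manf, a small ER stress protein, 1963, 2046 and 2004 in wt and 1521, 1534 and 1614 in null (−0.37 ± 0.09, adjusted p = 0.0047). The call of Pdia6 was lost without wt replicate 2, wt replicate 3 or null replicate 2 (adjusted p = 0.0575, 0.0672 and 0.0626). Dnajb9 (ERdj4), a BiP cofactor that holds Ern1 inactive, overlapped between the groups, with 185, 209 and 221 in wt and 162, 179 and 210 in null, and it did not pass (adjusted p = 0.326). Pdia2, the disulphide isomerase of the pancreas, was at 0 to 2 reads in null and 2 to 8 in wt, too few for a fold change. With Pdia2 set at the bound that 3 reads per library allow, the median of the members was still −0.31. Its exons overlap those of Arhgdig on the same strand over 92.4% of its length, so the counts of Pdia2 are uncertain in every group. The other chaperones past the test were Hsp90b1, Canx, Pdia3, Pdia4, P4hb, Dnajb11, Dnajc3, Hyou1 and Creld2, with log2 fold changes from −0.37 (Dnajc3) to −0.15 (Canx).

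Of the sensors, Eif2ak3 passed, with 517, 555 and 510 in wt and 415, 440 and 407 in null (−0.32 ± 0.08, adjusted p = 0.0087). Ern1 and Atf6 did not pass, at −0.25 ± 0.11 and −0.13 ± 0.06. Ern1 had 781, 940 and 863 in wt and 718, 734 and 721 in null, and Atf6 835, 886 and 818 in wt and 777, 775 and 762 in null, without overlap in either. Ern1 passed in the fit of the 6 libraries alone (adjusted p = 0.0078) and with no filter on low counts (0.0294). Of the derlins, which form part of the channel for retrograde transport, Derl3 passed at low counts of 30.6, 52.7 and 32.9 in wt and 19.6, 21.2 and 16.0 in null (−1.03 ± 0.29, adjusted p = 0.0135). Without wt replicate 2 its adjusted p was 0.0958, and without null replicate 3 it was 0.0618. Derl1, with 918, 952 and 899 in wt and 832, 795 and 841 in null, and Derl2 did not pass (adjusted p = 0.0631 and 0.0533), although Derl1 did in the 6 libraries alone (0.0207). The lectin Os9 and the ligase Syvn1 did, at −0.43 ± 0.08 and −0.28 ± 0.08, although Syvn1 lost the call without wt replicate 2 (adjusted p = 0.0638).

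All 6 genes of the translocon and COPII class were lower. Sec61b, a small subunit of the translocon, had 1133, 1452 and 1286 in wt and 903, 896 and 892 in null (−0.52 ± 0.11, adjusted p = 0.00143). Ssr2 had 4415, 4891 and 4631 in wt and 3511, 3381 and 3477 in null (−0.43 ± 0.07, adjusted p = 0.000457). In both the null replicates lay close together and below wt. Sec61a1, the channel subunit, had 4848, 5255 and 4941 in wt and 4072, 4114 and 3983 in null (−0.31 ± 0.06, adjusted p = 9e-04). Sec24d, which selects cargo for COPII vesicles, had 1304, 1369 and 1209 in wt and 1034, 988 and 1105 in null (−0.31 ± 0.07, adjusted p = 0.00381). Of the reference transcripts of Sec61b 17.4% of 50-base words also occur at another locus, and of Ssr2 11.0%, and reads that fit several loci were not counted. Sec24d overlaps Mettl14 on the opposite strand over 8.38% of its length, and the strand setting of the counting is not given in the sources used here.

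Cell type markers moved with these differences. The summed level of 8 acinar markers was 6248 to 10650 CPM in wt and 2146 to 2332 CPM in null, with 7 of 7 tested lower. Endocrine markers ranged from 2098 to 2321 CPM in wt and from 1069 to 1213 CPM in null (8 of 8 lower), and general epithelial markers from 2074 to 2279 CPM and from 1479 to 1556 CPM (8 of 8 lower). Mesenchymal markers ranged from 8552 to 8648 CPM in wt and from 6713 to 7900 CPM in null, with 3 of 8 genes higher and 4 lower. The part of these shifts in the lower ER genes was not tested.

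**Figure D2:**
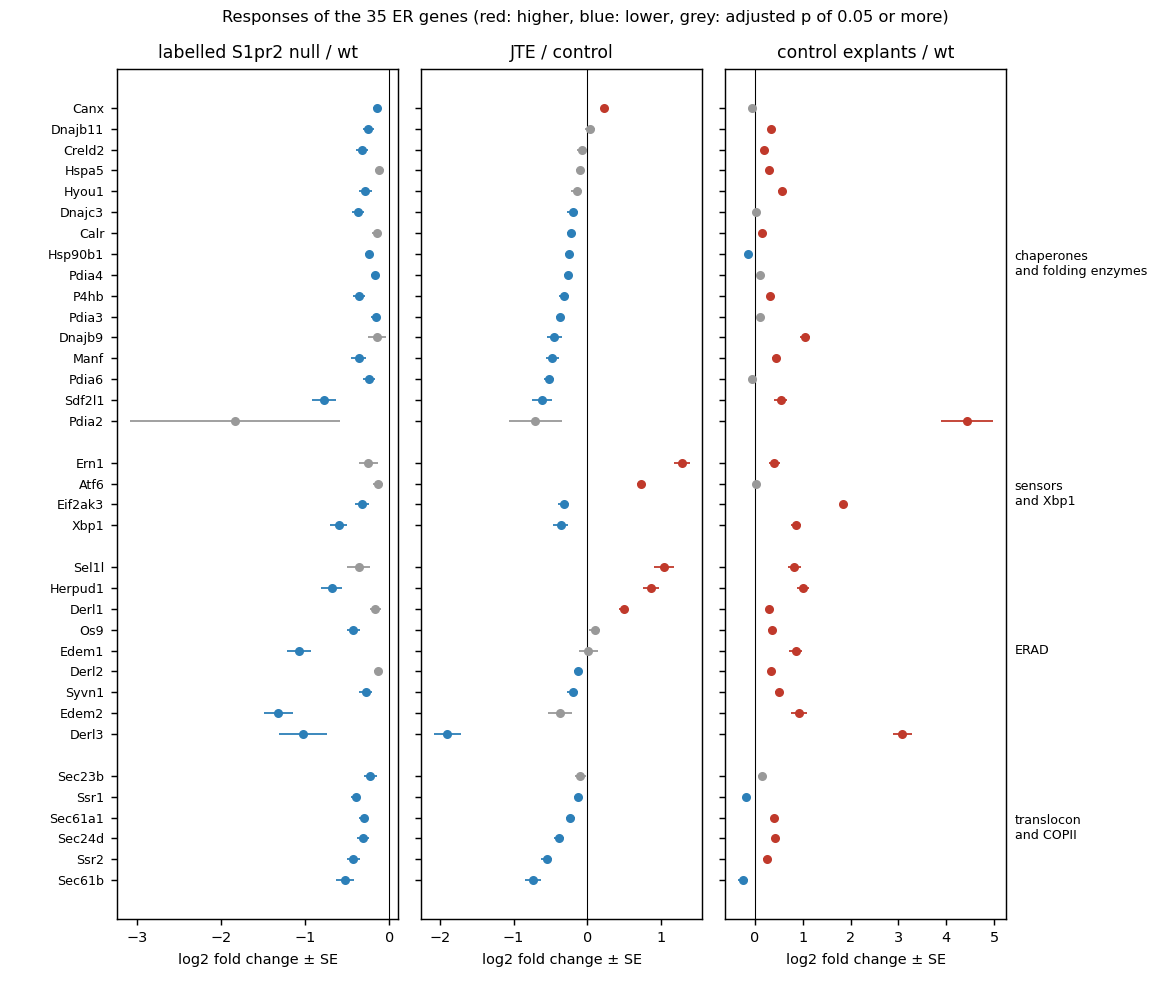
Log2 fold change with its SE for each of the 35 members, grouped by class and ordered by the JTE response, in libraries labelled S1pr2 null against wt, JTE against control and control explants against wt. All 35 points of the first panel lie below 0, the JTE panel spreads from −1.90 (Derl3) to 1.29 (Ern1), and 25 points of the last panel are red.

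In culture, JTE013 was accompanied by changes in both directions. The sensors Ern1 and Atf6 and the ERAD genes Sel1l, Herpud1 and Derl1 were higher, whereas most folding enzymes, the translocon and Derl3 were lower. Of the 35 members, 6 were higher (25.9% of all genes tested) and 20 lower (26.2%), with a median log2 fold change of −0.22 against 0.00 over all genes. The libraries of the groups did not overlap for 25 of the 35 (71.4%), against 56.7% of all genes. The 6 higher members were 2 of the 4 sensors, 3 of the 9 ERAD genes and 1 of the 16 chaperones (Canx), and the 20 lower ones were 10 chaperones, 2 sensors, 3 ERAD genes and 5 of the 6 translocon and COPII genes. By the criterion of the study 4 were higher (Ern1, Sel1l, Herpud1 and Atf6, against 3.08% of all genes) and 2 lower (Derl3 and Sec61b, against 5.18%). Without the JTE replicate 3, which stood apart, 7 members were higher and 16 lower.

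Sel1l, the adaptor that ties the ligase Syvn1 to its substrates, had normalised read counts of 5168, 5761 and 3770 in control explants, 10390, 12150 and 7861 in JTE and 10050, 9214 and 9589 in JTE with CTGF. Every library with the antagonist was above every control library, and the replicates 3 of control and JTE were the lowest of their groups. Sel1l was higher in JTE than in control by 1.05 ± 0.14 on the log2 scale (edgeR, adjusted p = 6.41e-06), and between 0.89 and 1.20 when any one library was left out. Herpud1 had 1427, 1494 and 1099 in control, 2512, 2745 and 2098 in JTE and 3118, 2837 and 3305 in JTE with CTGF (0.87 ± 0.11 for JTE against control, adjusted p = 5.75e-06). Derl1 had 1183, 1191 and 1025 in control, 1575, 1614 and 1616 in JTE and 2151, 1952 and 2230 in JTE with CTGF (0.50 ± 0.06, adjusted p = 3.81e-06). The 3 groups of Derl1 did not overlap, with JTE in the middle. Syvn1 itself, the partner of Sel1l, was lower in JTE (−0.20 ± 0.07, adjusted p = 0.0316), a call that was lost without control replicate 1, control replicate 2 or JTE replicate 3 (adjusted p = 0.0582, 0.108 and 0.181).

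Derl3 went the other way from Derl1, with 328, 386 and 268 in control, 109, 91.9 and 63.3 in JTE and 102, 108 and 107 in JTE with CTGF. Every treated library was below every control library (−1.90 ± 0.18 for JTE against control, adjusted p = 2.89e-07), the largest difference of any member in this comparison. Derl2 was lower by a small amount (−0.13 ± 0.05, adjusted p = 0.035), and lost the call without control replicate 1 or 3 or JTE replicate 2 or 3 (adjusted p from 0.0754 to 0.101). Edem1, Edem2 and Os9, the genes that recognise or trim glycans on misfolded proteins, had log2 fold changes of 0.02, −0.37 and 0.10 and did not pass. Edem2 had 3257, 3497 and 2540 in control and 2727, 2772 and 1704 in JTE, with the JTE replicate 3 far below its fellows. Its adjusted p was 0.0659, and it passed as lower with no filter on low counts (0.00572), under raw library totals (0.0382) and in 4 of 15 fits that left out 1 library.

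The sensors split as well. Ern1 had 1028, 1197 and 1199 in control, 2844, 2800 and 2705 in JTE and 2856, 1980 and 2104 in JTE with CTGF, all treated libraries above all controls (1.29 ± 0.11 for JTE against control, adjusted p = 4.13e-08). Atf6 had 893, 873 and 809 in control, 1471, 1429 and 1381 in JTE and 1197, 1073 and 1156 in JTE with CTGF (0.73 ± 0.05, adjusted p = 1.21e-08). For Atf6 the 3 groups did not overlap and those with CTGF lay in between. Xbp1, the substrate of Ern1, had 6370, 6677 and 5277 in control, 5104, 5046 and 4120 in JTE and 7754, 6448 and 7425 in JTE with CTGF, and was lower in JTE (−0.36 ± 0.10, adjusted p = 0.00484). All 3 JTE libraries of Xbp1 lay below the lowest control, replicate 3. Eif2ak3 had 1935, 1956 and 1794 in control, 1545, 1711 and 1304 in JTE and 1773, 1771 and 1765 in JTE with CTGF, and was lower in JTE (−0.32 ± 0.07, adjusted p = 0.00144).

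**Figure D3:**
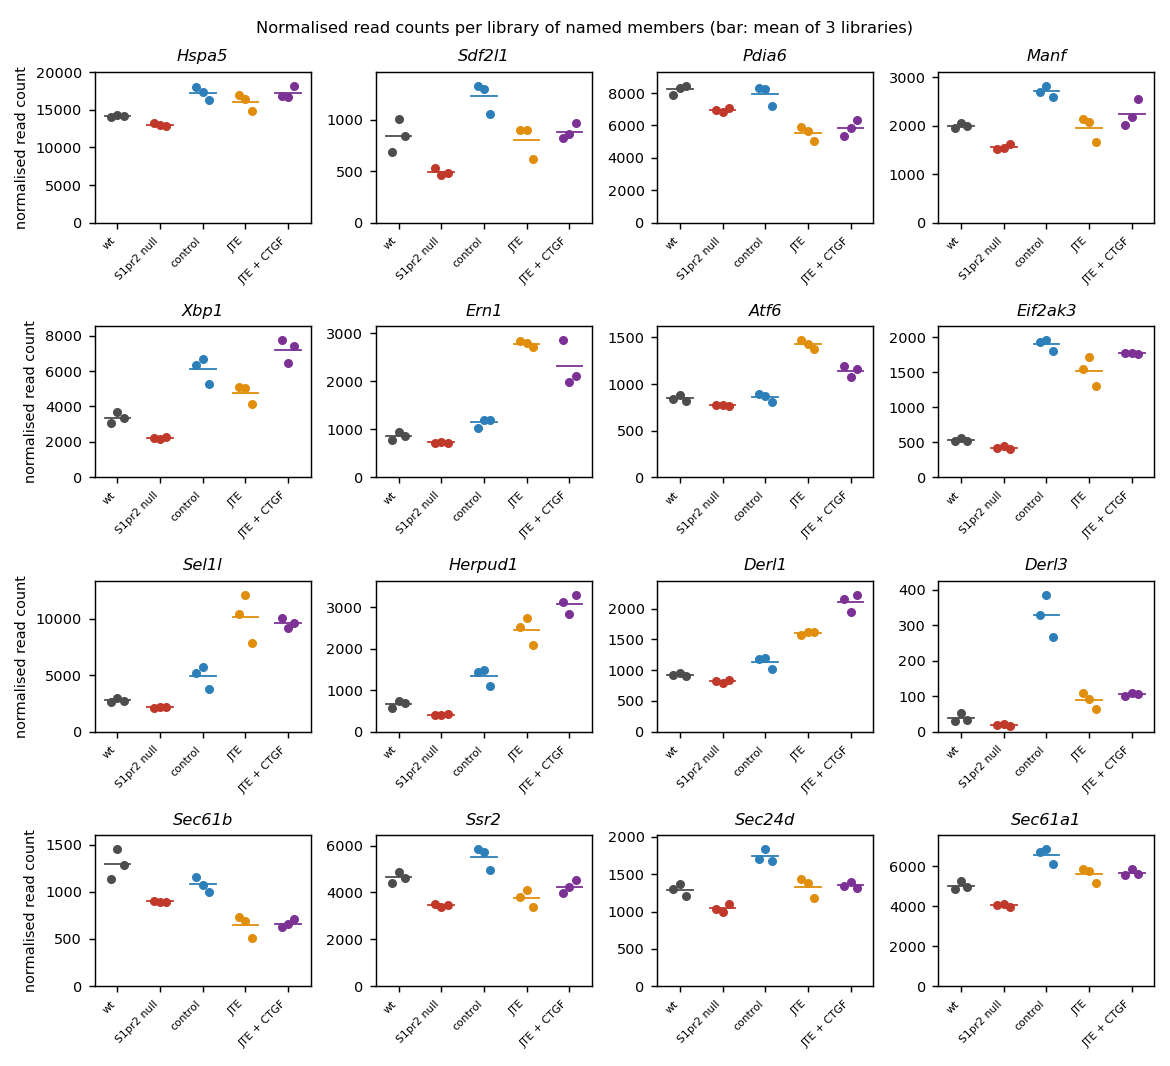
Normalised read counts (axis from 0) of 16 members in each library of the 5 groups, with the group mean as a bar. Sel1l, Herpud1, Ern1, Atf6 and Derl1 stand above control in every JTE library, and Derl3, Xbp1, Pdia6, Sec61b and Ssr2 below it.

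Among the chaperones, Hspa5 had 18030, 17340 and 16350 in control, 16940, 16440 and 14850 in JTE and 16860, 16640 and 18190 in JTE with CTGF. The groups overlapped, and the difference of JTE from control was −0.10 ± 0.06 (adjusted p = 0.133). Sdf2l1 had 1333, 1296 and 1059 in control, 899, 899 and 623 in JTE and 826, 863 and 965 in JTE with CTGF (−0.61 ± 0.14 for JTE, adjusted p = 0.0012). Pdia6, a disulphide isomerase, had 8322, 8234 and 7184 in control, 5898, 5636 and 5024 in JTE and 5337, 5850 and 6339 in JTE with CTGF (−0.52 ± 0.07, adjusted p = 1.3e-05). For both genes no treated library reached the lowest control. Manf had 2704, 2826 and 2599 in control, 2130, 2072 and 1662 in JTE and 2016, 2187 and 2551 in JTE with CTGF (−0.47 ± 0.09, adjusted p = 0.000184). Dnajb9 had 415, 452 and 397 in control, 307, 341 and 283 in JTE and 414, 369 and 409 in JTE with CTGF (−0.44 ± 0.10, adjusted p = 0.000971). With CTGF, Dnajb9 was back within reach of control, and Manf stayed below its lowest control library in every library (−0.27 ± 0.09, adjusted p = 0.0116), narrowly so in replicate 3. The call of Manf was lost without replicate 1 of JTE with CTGF (adjusted p = 0.0715).

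The 1 chaperone that was higher in JTE, the membrane-bound lectin Canx, had a log2 fold change of 0.23 ± 0.05 (adjusted p = 0.000601), whereas its soluble relative Calr was lower (−0.22 ± 0.05, adjusted p = 0.0026). Hsp90b1, Pdia3, Pdia4, P4hb and Dnajc3 were lower, with log2 fold changes from −0.37 (Pdia3) to −0.20 (Dnajc3). The call of Dnajc3 was lost without control replicate 1, control replicate 2 or JTE replicate 3 (adjusted p = 0.119, 0.103 and 0.159). Dnajb11, Hyou1, Creld2 and Pdia2 did not pass. Pdia2 had 119, 123 and 58 reads in control, 76, 84 and 28 in JTE and 62, 113 and 118 in JTE with CTGF, and all 3 groups overlapped.

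In the translocon and COPII class, Sec61b had 1161, 1075 and 999 in control, 737, 693 and 512 in JTE and 622, 658 and 708 in JTE with CTGF (−0.74 ± 0.11 for JTE, adjusted p = 2.63e-05). Ssr2 had 5849, 5719 and 4936 in control, 3817, 4082 and 3385 in JTE and 3988, 4213 and 4512 in JTE with CTGF (−0.55 ± 0.07, adjusted p = 9.87e-06). Both were below control in every treated library. Sec24d had 1700, 1838 and 1682 in control, 1435, 1387 and 1182 in JTE and 1342, 1403 and 1315 in JTE with CTGF (−0.38 ± 0.07, adjusted p = 0.000206). Sec61a1 had 6728, 6858 and 6100 in control, 5872, 5750 and 5171 in JTE and 5575, 5841 and 5630 in JTE with CTGF (−0.23 ± 0.06, adjusted p = 0.00283). Ssr1 passed narrowly (adjusted p = 0.0483) and lost the call in 13 of 15 fits that left out 1 library, while Sec23b did not pass.

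Beside these values, summed macrophage and leukocyte markers ranged from 448 to 472 CPM in control and from 167 to 212 CPM in JTE (8 of 8 lower), endocrine markers from 4703 to 5374 CPM and from 994 to 1304 CPM (8 of 8 lower), and markers of duct and trunk epithelium from 2151 to 2404 CPM and from 1088 to 1143 CPM (5 of 8 lower). Acinar markers overlapped, with 46140 to 61460 CPM in control and 45840 to 82930 CPM in JTE (1 of 7 tested higher). The part of these shifts in the ER genes was not tested.

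Other genes of the pathway, in 5 lists, were counted in the same way, to be read against the 25.9% of all genes higher and 26.2% lower in JTE, and the 12.6% and 13.3% in null. The lists were chosen with earlier results of these data known, so counts over them describe them and are not a test. The list of the PERK arm and of targets of CHOP was higher as a block in JTE, with 15 of 15 genes past the test and a median log2 fold change of 1.74. Trib3, a pseudokinase induced by CHOP, was at 4.89 ± 0.15, Ddit3 (CHOP itself) at 3.48 ± 0.14 and the cystine transporter Slc7a11 at 2.69 ± 0.15. Against wt, the libraries labelled S1pr2 null had 0 of these 15 higher and 5 lower. In control explants against wt, 13 of the 15 were already higher (28.5% of all genes tested) and 0 lower (29.3%), with a median of 0.69. Eif2ak3, the sensor that gives this arm its name, was lower in JTE (above). Of 25 further folding and glycosylation genes 3 were higher in JTE and 16 lower, with Fkbp11, a prolyl isomerase, at −0.62 ± 0.15, Pdia5, a disulphide isomerase, at −0.61 ± 0.09, and Ero1l, the oxidase that drives disulphide formation, at 0.54 ± 0.08. Ero1l is also 1 of the 15 genes of the PERK and CHOP list.

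Of 19 further ERAD genes 9 were higher in JTE and 4 lower, among them Herpud2, a relative of Herpud1, at 0.52 ± 0.06 and the extraction ATPase Vcp at −0.42 ± 0.08. Of the 28 tested of 29 further genes of translocation and ER export, 5 were higher and 12 lower, with the translocon subunit Sec61g at −0.82 ± 0.28, the signal peptidase subunit Sec11c at −0.72 ± 0.08 and Sec61a2 at 0.48 ± 0.09. Of 10 tested of 11 other ER stress transducers, 6 were higher and 2 lower, with the ER-anchored factors Creb3l3 at −3.04 ± 0.33 and Nfe2l1 at 0.97 ± 0.04, and with Mbtps2, a protease that cleaves Atf6, at 0.90 ± 0.09. In the libraries labelled S1pr2 null the counts of higher and lower genes were 1 and 14 for folding and glycosylation, 0 and 4 for ERAD, 1 and 9 for translocation and export, and 2 and 2 for the transducers.

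The responses to JTE013 in culture and in the libraries labelled S1pr2 null were compared gene by gene, in one test of the difference. Of the 35 members, 17 were lower in both and 7 lower in null and not past the test in JTE. Lower in JTE and not past the test in null were 3 (Calr, Dnajb9 and Derl2). For these 3 the difference did not pass, and Calr was lower in null in DESeq2 (adjusted p = 0.033). Higher in JTE and not past the test in null were 4 (Ern1, Atf6, Sel1l and Derl1). All of these but Atf6 were lower in null when those 6 libraries were fitted alone. The remaining members were 2 lower in null and higher in JTE (Canx and Herpud1), and 2 past the test in neither (Hspa5 and Pdia2). Of all genes tested, 13.3% were lower in null, and 26.2% were lower and 25.9% higher in JTE. The share of all genes with each joint pattern was not counted, so the joint counts only describe the members. The difference itself passed for 14 members. For 12 of them, against 21.5% of all genes tested, the JTE response was above the null response, and for 2, against 21.5%, below it (Pdia3 and Pdia6). Derl3 had the most negative difference, −0.87 ± 0.35 (adjusted p = 0.0538), which passed with the size factors of DESeq2 in edgeR (RLE, 0.0483), with no filter on low counts (0.0281), in DESeq2 itself (0.0383) and under raw library totals (0.0393). Pdia3 and Pdia6 lost their calls in 7 and 8 of 15 fits that left out 1 library. The largest differences were those of Herpud1 (1.56 ± 0.17, adjusted p = 1.91e-06), Ern1 (1.54 ± 0.15, adjusted p = 8.14e-07) and Sel1l (1.41 ± 0.19, adjusted p = 2.12e-05). By class the difference passed in 6 of 9 ERAD genes and 2 of 4 sensors, but in 5 of 16 chaperones and 1 of 6 translocon and COPII genes. The 2 comparisons share no library but differ in stage, in culture and in the way the receptor was blocked or deleted, which cannot be told apart.

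With CTGF added to JTE013, most members did not pass the test against JTE. Against JTE, 7 members were higher (13.6% of all genes tested) and 2 lower (16.8%), and the libraries of the groups did not overlap for 9 (25.7%, against 40.2% of all genes). Of those past the test Xbp1 changed the most, at 0.60 ± 0.10 (adjusted p = 0.000205), followed by Derl1 (0.40 ± 0.06), Dnajb9 (0.36 ± 0.10), Herpud1 (0.33 ± 0.11), Eif2ak3 (0.22 ± 0.07), Creld2 (0.19 ± 0.07) and Derl2 (0.16 ± 0.05). Creld2 lost its call in 10 of 15 fits that left out 1 library and under raw library totals (adjusted p = 0.0547), Eif2ak3 in 5 such fits and with the compared groups alone (0.0791), and Derl2 in 2 such fits, with the compared groups alone (0.0599) and under raw totals (0.0881). Herpud1 lost its call without JTE replicate 3 (0.0594) and without replicate 1 or 3 of JTE with CTGF (0.0608 and 0.118). Atf6 (−0.32 ± 0.05, adjusted p = 0.000263) and Canx (−0.17 ± 0.05, adjusted p = 0.0137) were lower, Canx losing its call without JTE replicate 2 (0.063) or replicate 3 of JTE with CTGF (0.0524). Ern1 was at −0.27 and did not pass (edgeR, adjusted p = 0.0567). It passed as lower with no filter on low counts (0.0201), under raw library totals (0.0414) and in 2 of 15 fits that left out 1 library. Sel1l differed by −0.08 ± 0.13 (adjusted p = 0.718). Without the JTE replicate 3 there were 4 higher members in place of 7, and without replicate 3 of JTE with CTGF also 4. By the criterion of the study 1 member was higher (Pdia2, against 0.443% of all genes) and 0 were lower (against 1.30%). Pdia2 did not pass the test used here (edgeR, adjusted p = 0.0946), its libraries overlapped and its counts are uncertain.

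Set against the same control libraries as JTE, explants with JTE013 and CTGF had 6 members higher (28.1% of all genes tested) and 16 lower (33.0%), and no overlap between groups for 22 (62.9%, against 64.8%). The median was −0.10, against −0.03 over all genes. Herpud1 (1.20 ± 0.11, adjusted p = 1.01e-07), Ern1 (1.02 ± 0.11, adjusted p = 3.53e-07), Sel1l (0.97 ± 0.14, adjusted p = 9.19e-06), Derl1 (0.90 ± 0.06), Atf6 (0.41 ± 0.06) and Xbp1 (0.24 ± 0.10, adjusted p = 0.0411) were higher. The call of Xbp1 was lost without control replicate 3 (adjusted p = 0.213), without replicate 1 or 3 of JTE with CTGF (0.153 and 0.106), in 2 fits that left out a wt or null library (0.0513 and 0.0506) and under raw library totals (0.0566), and 1 library with CTGF (6448) lay below the highest control (6677). The 16 lower members were 10 chaperones, Derl3 and 5 of the 6 translocon and COPII genes. By the criterion of the study 4 members were higher (Herpud1, Ern1, Sel1l and Derl1, against 4.39% of all genes) and 1 lower (Derl3, against 7.39%). The PERK and CHOP list again had 15 of 15 genes higher, with a median of 1.88.

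Cell type markers moved with CTGF too. Erythroid markers ranged from 18.1 to 48.9 CPM in JTE and from 106 to 180 CPM in JTE with CTGF (5 of 8 higher than in JTE, 6 of 8 higher than in control), and summed acinar markers from 85070 to 96500 CPM with CTGF, above the 82930 CPM of the highest JTE library, although 0 of the 7 tested passed against JTE. Against control, 8 of 8 endocrine markers (1012 to 1496 CPM), 8 of 8 macrophage and leukocyte markers (149 to 219 CPM) and 7 of 8 duct and trunk markers (1199 to 1430 CPM) were lower. The part of these shifts in the ER genes was not tested.

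Between freshly taken wt pancreata and control explants, all 9 ERAD genes passed the test as higher in the explants. Over all members 25 were higher (28.5% of all genes tested) and 3 lower (29.3%), with no overlap for 26 (74.3%, against 63.8%) and a median of 0.34 against −0.02. Sel1l was higher by 0.82 ± 0.14 (adjusted p = 6.19e-05), with the counts given above of 2641 to 2954 in wt and 3770 to 5761 in control. Derl3 was higher by 3.08 ± 0.20 (adjusted p = 1.68e-09), Herpud1 by 1.01 ± 0.12 and Edem2 by 0.92 ± 0.16. Every control library of these 4 genes lay above every wt library. The direction of small rises depended on the scale. In TPM the group means of Derl1 were 67.4 in wt and 64.7 in control, those of Derl2 17.8 and 17.5, and those of Os9 131 and 130. The other ERAD genes stayed above wt in mean TPM.

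Eif2ak3 was higher by 1.85 ± 0.08 (adjusted p = 6.12e-12) and Xbp1 by 0.86 ± 0.10 (adjusted p = 1.13e-06), whereas Atf6 differed by 0.02 ± 0.06 (adjusted p = 0.772). Hspa5 was higher by 0.29 ± 0.06 (adjusted p = 0.000271), although its mean TPM was 925 in wt and 883 in control. Hsp90b1, Ssr1 and Sec61b were lower, at −0.15 ± 0.05, −0.18 ± 0.05 and −0.26 ± 0.10. Sec61b lost its call under RLE factors (adjusted p = 0.0577), in DESeq2 (0.0667) and in 8 of 15 fits that left out 1 library, the highest without wt replicate 2 (0.212), and Hsp90b1 with no filter on low counts (0.0643) and in 3 such fits. By the criterion of the study 9 members were higher (Pdia2, Dnajb9, Xbp1, Eif2ak3, Herpud1, Edem1, Edem2, Sel1l and Derl3, against 7.99% of all genes) and 0 lower (against 4.14%). Culture, 2 further days of development and the dissection of dorsal buds change together here and cannot be told apart. Summed acinar markers ranged from 6248 to 10650 CPM in wt and from 46140 to 61460 CPM in control (5 of 7 tested higher), macrophage and leukocyte markers from 188 to 196 CPM and from 448 to 472 CPM (6 of 8 higher), and erythroid markers from 1125 to 1332 CPM and from 13.8 to 35.6 CPM (8 of 8 lower). The part of these shifts in the ER genes was not tested. Scaling by raw library totals, an alternative chosen after seeing the data, moved the median of all genes from −0.02 to −0.17, and gave 22 members higher and 5 lower with a median of 0.19. Under it Calr was at 0.00 and Creld2 and Ssr2 lost their calls as higher, while Canx and Pdia6 passed as lower.

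The secretory load was taken as the summed CPM of cargo genes, made up of 30 acinar enzymes and related secreted proteins, 16 hormones and granule proteins of endocrine cells and 20 matrix proteins. In wt the cargo came to 27840, 34720 and 30280 CPM and the 16 chaperones to 7959, 8321 and 8322 CPM, or 3.50, 4.17 and 3.64 cargo reads per chaperone read. In the libraries labelled S1pr2 null the cargo was 19190, 16880 and 18400 CPM and the chaperones 7056, 6953 and 7149 CPM, a ratio of 2.72, 2.43 and 2.57. Both sums were lower in null in every library, and the cargo by more, so that the ratio was below wt without overlap. The fall in cargo was mainly acinar, from 8718 to 14940 CPM in wt down to 2726 to 2959 CPM in null. No test was run on these sums.

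In control explants the cargo was 120200, 118500 and 92170 CPM, while the chaperones were 9333, 9296 and 8585 CPM. The ratio of 12.9, 12.7 and 10.7 lay above that of wt in every library, and the acinar genes made up 67380 to 95330 CPM of the cargo. The chaperone sum was above wt by less than the cargo was, and by 0.00 on the log2 scale under raw library totals. In JTE the cargo was 118300, 135800 and 83200 CPM and the chaperones 8173, 8146 and 7271 CPM, with ratios of 14.5, 16.7 and 11.4 that overlapped with control. Gene by gene, however, 13 of the 28 acinar cargo genes tested were lower in JTE (26.2% of all genes tested) and 2 higher (25.9%). Their median log2 fold change was −0.48. Of 16 endocrine cargo genes 14 were lower (7444 to 8495 CPM summed in control, 2738 to 3147 CPM in JTE). In JTE with CTGF the cargo was 138800, 144100 and 157000 CPM, the chaperones 7727, 8014 and 8368 CPM and the ratios 18.0, 18.0 and 18.8, above all libraries of the other groups. This rise in the sum was not shared by most cargo genes. Against control, 11 of the 28 acinar cargo genes tested were lower (33.0% of all genes tested) and 6 higher (28.1%), with a median of −0.20. Of 16 endocrine cargo genes 13 were lower and 0 higher. The chaperone sums of both treated groups were below every control library.

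**Figure D4:**
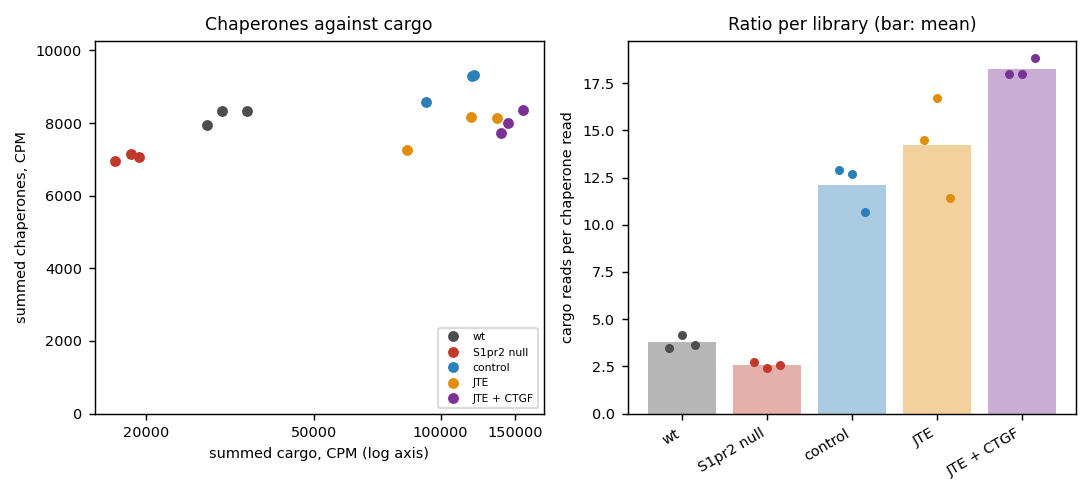
Left, summed CPM of the 16 chaperones against summed CPM of the cargo genes (log axis) in each of the 15 libraries. Right, cargo reads per chaperone read in each library, with the group mean as a bar; the ratio ran from 2.43 in a library labelled S1pr2 null to 18.8 in JTE with CTGF.

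The other classes followed their own course over the groups. The summed level of the 9 ERAD genes was 881 to 1079 CPM in wt, 649 to 663 in null, 1352 to 1769 in control, 1671 to 2346 in JTE and 2088 to 2226 in JTE with CTGF. Control and JTE overlapped in this sum, the JTE replicate 3 being the lowest of its group. The translocon and COPII genes came to 1449 to 1585 CPM in wt, 1161 to 1177 in null, 1567 to 1739 in control, 1231 to 1427 in JTE and 1378 to 1438 in JTE with CTGF. This class was thus below control in every treated library, whereas the ERAD sum was above control in every library of JTE with CTGF. The sensors with Xbp1 came to 414 to 484 CPM in wt, 326 to 334 in null, 724 to 853 in control, 758 to 876 in JTE and 899 to 1083 in JTE with CTGF. Without Xbp1 the log2 ratio of JTE with CTGF to JTE turned from positive to −0.13.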

How the data were processed

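RNA sequencing data of 15 libraries, 3 in each of 5 groups, were used, grouped and numbered as in their titles. The authors aligned single-end reads of strand-specific poly(A) libraries to mm10 with GSNAP and deposited raw counts of uniquely aligned reads per Ensembl gene from featureCounts 1.4.6. The strand setting of the counting is not given in the sources used here. Counts were not normalised. All 25292 genes were read in, symbols came from GENCODE M21 (24750 genes, 97.9%), and 0 columns were left out.

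The 35 members and all gene lists were chosen with earlier results of these data known. Tests were run with edgeR 4.0.16 in R 4.3.3 on quasi-likelihood fits (F-test, TMM factors, filterByExpr, all 15 libraries in one fit with 10 residual degrees of freedom, no covariate), with Benjamini-Hochberg adjustment over 16245 genes and calls at an adjusted p below 0.05. The SE is the log2 fold change divided by the root of F. Normalised read counts are counts scaled by effective library size to the mean, and CPM uses the same sizes. TPM was computed from the gene lengths in the count table. The biological coefficient of variation was 7.3%. P-values of the main fit rest on the spread between the 3 libraries within a group, shared over all 5 groups. Each library holds pooled organs or explants.

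Values in every library were given for Sel1l, Xbp1 and Hspa5 and for up to 4 members of each class with the largest change past the test in JTE against control, and 3 genes were named for each of the 5 pathway lists by the same order, except that 1 result in the ERAD list is not reported here. Any other gene was named by its count or after its values were seen. Alternatives were DESeq2 1.42.0, its size factors in edgeR (RLE), no filter on low counts, the libraries of the compared groups alone, a replicate block, raw library totals, the criterion of the study, and each library left out. Same-numbered replicates were not treated as pairs in the main fit. Correlations of their deviations ran from −0.15 to 0.32 and exceeded 0.1 in 2 pairs, both of JTE against control (−0.06, 0.21 and 0.32). With 3 libraries in each group, these correlations cannot exclude pairing in that comparison. The test was tried on simulated counts for JTE against control: of 100 genes changed 1.5-fold 96 were recovered, of 100 changed 2-fold all 100, and 17 of 15717 unchanged genes were called. In the data that comparison called 8474 of 16245 genes, far more than were changed in the simulation, so these rates need not hold there. The floor for a fold change was 3 reads per library and covers counting error only. Promoter windows and their motifs came from RefSeq on GRCm38.p6, and windows of 6 members were not used here.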

Additional observations from a re-analysis of the deposited data

Results flagged for a closer look

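For 14 members the response to JTE013 in culture differed from that of the libraries labelled S1pr2 null by a test of the difference itself (edgeR interaction, adjusted p below 0.05), 12 above it and 2 below it, where 21.5% of all genes tested were above and 21.5% below. On the log2 scale the JTE response minus the null response was 1.56 for Herpud1, 1.54 for Ern1, 1.41 for Sel1l, 1.09 for Edem1, 0.95 for Edem2, 0.87 for Atf6, 0.67 for Derl1, 0.53 for Os9, 0.38 for Canx, 0.29 for Dnajb11, 0.28 for Ssr1 and 0.26 for Creld2. It was −0.21 for Pdia3 and −0.27 for Pdia6. Herpud1 was higher in JTE by 0.87 and lower in null at −0.69, whereas Edem1 was at 0.02 in JTE and −1.08 in null, so the difference rests on JTE and null for Herpud1 and on null for Edem1. Adjusted p-values ran from 2.93e-07 (Atf6) to 0.0438 (Creld2). The call of Creld2 was lost under RLE factors (0.0652), in DESeq2 (0.0844) and in 9 of 15 fits that left out 1 library, and that of Dnajb11 without control replicate 3 (0.0532) or JTE replicate 2 (0.0586). The calls of Pdia3 and Pdia6 were lost together when wt replicate 1, wt replicate 2, null replicate 2, null replicate 3, control replicate 1, control replicate 2 or JTE replicate 3 was left out, and that of Pdia6 also without null replicate 1.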

How the results depend on the processing

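Over 6 comparisons of 35 members (210 results), the side of the threshold was kept in 206 under RLE factors, 203 under DESeq2, 192 with no filter on low counts, 195 of 209 with the compared groups alone, 198 under raw library totals and 201 with a replicate block. With the replicate block 1 member, Derl3, had a JTE response below the null response (−0.88, adjusted p = 0.0238), while Pdia3 (0.0508) and Pdia6 (0.0512) no longer passed. With that block Sel1l also passed as lower in null (0.0338) and Edem2 as lower in JTE (0.0385), and the calls of Canx in null (0.052), Ssr1 in JTE (0.0556) and Creld2 in JTE with CTGF against JTE (0.0528) and in JTE minus null (0.0504) were not made. With the compared groups alone 1 member was lower in JTE with CTGF than in JTE. Raw library totals, an alternative chosen after seeing the data, gave 5 members lower in control explants than in wt and a median of 0.19. Under the criterion of the study the members lower were 3 in null, 2 in JTE, 1 in JTE with CTGF against control, 0 against JTE and 0 in control against wt. Those higher were 0 in null, 4 in JTE, 4 in JTE with CTGF against control, 1 against JTE and 9 in control against wt. Raw library totals also changed the summed log2 ratios of control to wt, which were 0.10 for all members, 0.001 for chaperones, 0.011 for translocon and COPII genes, 1.37 for endocrine cargo and, turned in sign, −0.12 for matrix cargo. Without Xbp1 the sensor sum was −0.22 in null, 0.56 in JTE and, turned in sign, −0.13 in JTE with CTGF against JTE. Without Sel1l the ERAD sum of JTE with CTGF against control was 0.23. Without Gcg the endocrine cargo was −1.22 in null and 2.03 in control against wt. The cause was not tested, beyond what leaving out a gene shows by itself.

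With each library left out in turn there were 20 to 29 members lower in null, 6 to 7 higher and 16 to 21 lower in JTE, 5 to 7 higher and 12 to 16 lower in JTE with CTGF against control, 4 to 7 higher and 1 to 3 lower against JTE, 23 to 28 higher and 1 to 3 lower in control against wt, and 10 to 15 above and 0 to 3 below for JTE minus null. The lowest counts against JTE came without replicate 2 of JTE (1 lower), without replicate 3 of JTE (4 higher) and without replicate 3 of JTE with CTGF (4 higher and 1 lower). The lowest count of control against wt (1 lower) came without replicate 3 of wt or of control. The calls of Canx, Pdia3, Pdia4 and Sec23b in null, and of Ssr1 in JTE, lay near the threshold. They were lost in 4, 5, 4, 6 and 13 of the 15 fits, in that order. The difference of each of these genes stayed negative in every fit.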
